A study of Rattus norvegicus with 6 samples.

Results

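The genes described here were 10 chemokines of the rat, 5 of the CC class (Ccl2, Ccl3, Ccl5, Ccl7 and Ccl20) and 5 of the CXC class (Cxcl1, Cxcl2, Cxcl10, Cxcl11 and Cxcl12). They were chosen by their family and with their si-uc.323 against si-scramble values on these arrays already known, so their values are given as a description, without a test. Of the 15168 named genes and 30367 probes on the array, these were 10 genes and 12 probes. Ccl20 and Cxcl12 had 2 probes each and the other members 1. Gene expression was measured in ventricular myocytes isolated from male newborn Sprague-Dawley rats, aged 1 to 2 days, and kept in primary culture. Fibroblasts had been reduced by a preplating step, and bromodeoxyuridine, which limits dividing cells, was in the medium. After 36 h of culture the cells received 50 nmol/L of an siRNA for 3 h and then stayed without serum for 21 h. In the si-uc.323 group (3 cultures) the siRNA was directed against uc.323, a transcribed ultraconserved region of the genome, and in the si-scramble group (3 cultures) it had a scrambled sequence. Both groups shared the lipid transfection reagent, the siRNA dose, the bromodeoxyuridine and the serum withdrawal, and no untransfected culture was analysed here. The study looked for targets of uc.323 in cardiomyocyte hypertrophy. No measurement of uc.323 itself was used here, so the knockdown was not checked.

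Chemokines are small secreted proteins that bind receptors of the G protein-coupled class and direct the migration of leukocytes. The CC and CXC classes are named for the spacing of conserved cysteines near the amino terminus. Ccl2 and Ccl7 attract monocytes through Ccr2, Ccl3 and Ccl5 act on Ccr1, and Ccl20 acts on Ccr6. Cxcl1 and Cxcl2 attract neutrophils through Cxcr2, Cxcl10 and Cxcl11 are interferon-inducible ligands of Cxcr3, and Cxcl12 acts on Cxcr4 and Ackr3. In the heart, myocytes, fibroblasts, endothelial cells and resident macrophages can all produce chemokines, and the genes of many of them are switched on by the transcription factor NF-kB, which binds the kappa B motif.

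The siRNA against uc.323 is shown because it defines the treated group; its terminal deoxythymidines are left off.
si-uc.323: gguaaguaauuucagcaau
Of the 10 members, 4 lie on rat chromosome 10 (Ccl2, Ccl3, Ccl5 and Ccl7), 4 on chromosome 14 (Cxcl1, Cxcl2, Cxcl10 and Cxcl11), and Ccl20 and Cxcl12 lie on chromosomes 9 and 4. RefSeq promoter windows of build GRCr8, from 250 bases before to 50 bases after the start of transcription, were matched for 7 members (Ccl7, Ccl20, Cxcl1, Cxcl2, Cxcl10, Cxcl11 and Cxcl12). A match to the kappa B consensus on either strand was found in 5 of these 7 windows, against 4.18% of all 33469 promoter windows of the same length. The interferon-related letters GAAANNGAA were found in 1 of the 7 (Cxcl10), against 9.71% of all windows. The AP-1 letters TGANTCA were found in 3 of the 7 (Ccl7, Cxcl10 and Cxcl11), against 7.33%. The stretches below run 5′ to 3′ on the strand of the gene and end at the last base before the start. They are shown for the 5 members with a kappa B match, and capitals mark the bases matching any of these 3 motifs.
Cxcl1 (chr14:17479322-17479415, minus strand): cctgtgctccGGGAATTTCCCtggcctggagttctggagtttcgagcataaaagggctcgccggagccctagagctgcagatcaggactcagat
Cxcl2 (chr14:17467256-17467339, minus strand): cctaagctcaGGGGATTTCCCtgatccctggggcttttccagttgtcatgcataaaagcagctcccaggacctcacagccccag
Cxcl10 (chr14:15988816-15989065, plus strand): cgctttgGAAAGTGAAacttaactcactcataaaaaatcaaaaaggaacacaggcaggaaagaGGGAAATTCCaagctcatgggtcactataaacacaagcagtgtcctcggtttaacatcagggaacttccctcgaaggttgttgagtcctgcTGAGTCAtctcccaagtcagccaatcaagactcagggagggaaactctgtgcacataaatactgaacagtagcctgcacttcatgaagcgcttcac
Cxcl11 (chr14:15973633-15973727, plus strand): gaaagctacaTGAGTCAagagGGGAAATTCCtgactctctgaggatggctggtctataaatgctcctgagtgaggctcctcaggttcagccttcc
Ccl20 (chr9:91837060-91837158, plus strand): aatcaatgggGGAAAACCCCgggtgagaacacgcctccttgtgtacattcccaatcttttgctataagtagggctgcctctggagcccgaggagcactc
The capitals of Cxcl1 and Cxcl2 each hold 2 overlapping kappa B matches. In Cxcl10 the capitals mark, in order, the interferon-related letters, kappa B and AP-1, and in Cxcl11 AP-1 and kappa B. A match describes the letters only.

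Levels are log2 intensities relative to the 75th percentile of the array's spots, so 0 is the brightness of that percentile. A level compares the same probe between arrays, not one gene with another. Arrays differed in brightness by slide. The sample labels give no slide, and arrays that share a scan identifier in the file headers were taken here as 1 slide. Slide 1, with all si-scramble cultures and replicate 1 of si-uc.323, had 71.8% to 73.9% of its probes well above background per array. Slide 2, with replicates 2 and 3 of si-uc.323, had 78.2% and 86.5%. The slide and the group can therefore be told apart only through si-uc.323 replicate 1, and the precision is limited by 3 arrays per group. All 10 members were well above background on all 3 si-scramble arrays and, except Cxcl2, on all 3 si-uc.323 arrays, so all 10 passed the filter on dim probes.

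In 5 of the 10 members, Ccl2, Ccl3, Ccl5, Cxcl2 and Cxcl10, each si-uc.323 array read below each si-scramble array. The groups did not overlap in this direction in 16.5% of all 19920 features tested (a named gene or an unnamed probe). No member had groups that did not overlap in the other direction, against 18.6% of features. The members were chosen on this contrast, so nothing is read from these counts. The median log2 difference, si-uc.323 minus si-scramble, was -0.33 over the 10 members and 0.04 over all features.

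Ccl2, the monocyte attractant MCP-1, had levels of 2.32, 2.17 and 2.37 on si-scramble arrays 1, 2 and 3 and of 1.59, 1.51 and 1.23 on si-uc.323 arrays 1, 2 and 3. All si-uc.323 arrays were lower, with a gap of 0.58 between the nearest arrays of the groups. The means were 2.29 ± 0.10 and 1.44 ± 0.19 (SD, n = 3 each), a log2 difference of -0.84 ± 0.14 (SE of the fit), or 1.79-fold lower. The groups of Ccl2 were apart before any scaling as well, at 5987, 6229 and 6091 intensity units with si-scramble and 3636, 4906 and 4153 with si-uc.323.

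Ccl3, the macrophage inflammatory protein 1 alpha, read -0.19, -0.37 and -0.32 on the si-scramble arrays and -0.82, -0.64 and -0.93 on the si-uc.323 arrays. The groups were apart by 0.27, and si-uc.323 replicate 2 lay nearest to the controls. The log2 difference of Ccl3 was -0.51 ± 0.12 (SE), 1.42-fold lower. Unscaled, the groups overlapped, from 951 to 1072 units with si-scramble and from 682 to 1102 with si-uc.323.

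Ccl5, or RANTES, which attracts T cells and monocytes, read -2.88, -2.88 and -2.91 on the si-scramble arrays and -3.30, -3.36 and -3.38 on the si-uc.323 arrays. The groups were apart by 0.39. Its log2 difference was -0.46 ± 0.10 (SE), 1.37-fold lower, and the standard deviations within the groups were 0.019 and 0.041. As for Ccl3, the unscaled groups overlapped (157 to 188 units with si-scramble, 123 to 171 with si-uc.323).

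Cxcl10, the interferon-inducible IP-10, read 0.69, 0.62 and 0.72 with si-scramble and 0.00, 0.18 and -0.32 with si-uc.323. All si-uc.323 arrays were lower, replicate 3 the furthest, and the groups were apart by 0.44. Before scaling the groups touched, at 1940 to 2119 units with si-scramble and 1209 to 1942 with si-uc.323. The scaled means were 0.68 ± 0.05 and -0.05 ± 0.25 (SD, n = 3 each), a log2 difference of -0.73 ± 0.15 (SE), or 1.65-fold lower.

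Cxcl2, a neutrophil attractant, was well above background on all 3 si-scramble arrays and on 2 of 3 si-uc.323 arrays (not on replicate 1). Its levels were -5.19, -5.70 and -5.41 with si-scramble and -6.54, -6.12 and -6.52 with si-uc.323, which corresponds to 26.6 to 33.0 intensity units against 12.9 to 24.7. The groups did not overlap on either scale. The log2 difference of Cxcl2 was -0.96 ± 0.18 (SE), and -0.46 with normexp background correction. The normexp correction was run with an offset of 50 units, which by itself makes the log2 differences of dim probes smaller. The size of the Cxcl2 difference is therefore not settled, with 1 si-uc.323 array not above background.

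**Figure D1:**
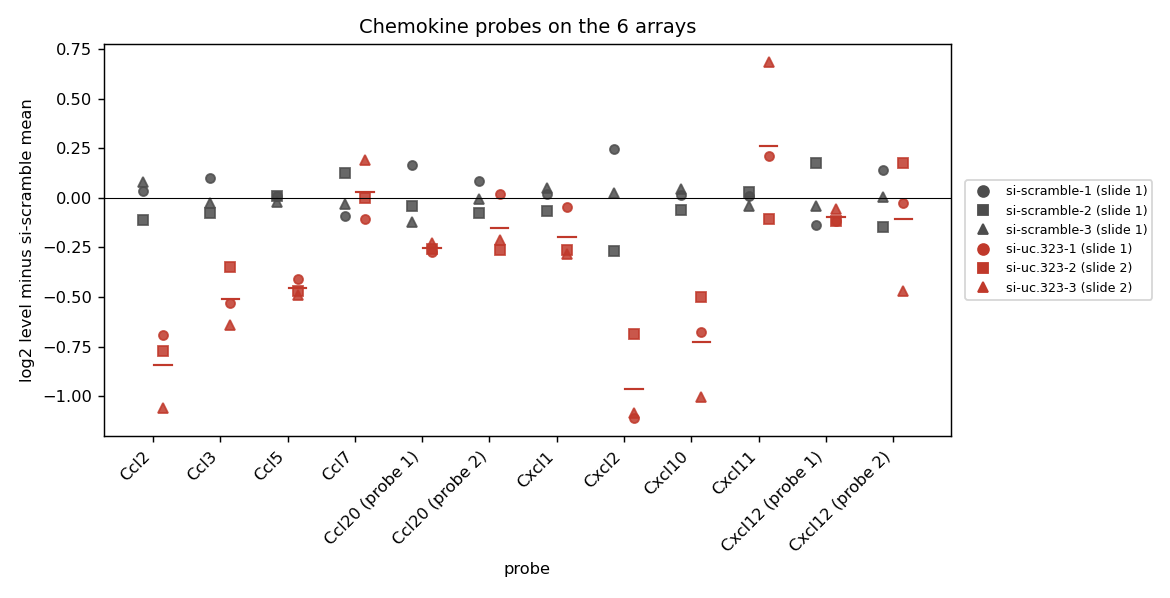
Each of the 12 chemokine probes (horizontal axis) on each of the 6 arrays, as log2 level minus the mean of the 3 si-scramble arrays (vertical axis). Grey points are si-scramble, red points si-uc.323, symbols are replicates, and a red bar is the si-uc.323 mean. The red points lie below all grey points for Ccl2, Ccl3, Ccl5, Cxcl2, Cxcl10 and probe 1 of Ccl20. For the other probes the groups overlap, with red points among the grey or on either side of them.

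The probes of Ccl2, Ccl3 and Cxcl1 were each printed at 10 spots of an array, of which 8 to 10 were used, so the error of reading a spot can be set beside the spread between arrays. Within an array, the standard deviation over the spots was 0.029 to 0.051 for Ccl2, 0.022 to 0.088 for Ccl3 and 0.033 to 0.052 for Cxcl1 (log2 scale). These spots share 1 labelled RNA and are no replicates of the culture. The standard deviation between the arrays of a group (si-scramble, then si-uc.323) was 0.10 and 0.19 for Ccl2, 0.09 and 0.15 for Ccl3 and 0.06 and 0.13 for Cxcl1. For Ccl3 with si-scramble it was close to the highest value between spots. An array's level is a mean over its spots, so the 2 kinds of spread are not alike.

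**Figure D2:**
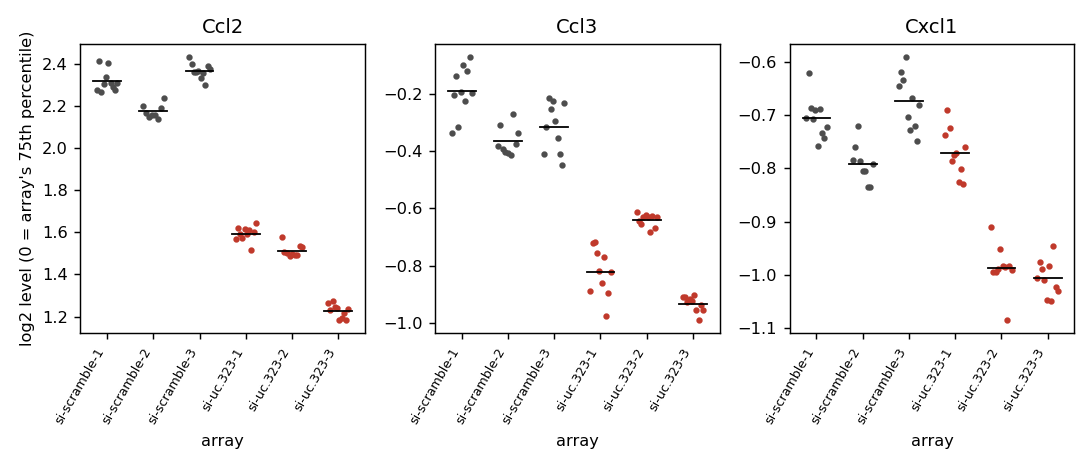
Log2 levels (vertical axis, 0 is the array's 75th percentile) of the single spots of the Ccl2, Ccl3 and Cxcl1 probes on each array (horizontal axis). Grey points are si-scramble and red points si-uc.323, with a black bar at each array's mean. The spots of an array lie close together beside the distance between the groups for Ccl2, whose array means run from 1.23 to 1.59 with si-uc.323 and from 2.17 to 2.37 with si-scramble, while for Cxcl1 si-uc.323 replicate 1 (-0.77) lies among the si-scramble arrays.

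Cxcl1, the partner of Cxcl2 on neutrophils, read -0.71, -0.79 and -0.67 with si-scramble and -0.77, -0.99 and -1.01 with si-uc.323. The groups overlapped, because si-uc.323 replicate 1, the only si-uc.323 array on the slide of the controls, lay among them. The log2 difference was -0.20 ± 0.12 (SE), and -0.05 on the arrays of slide 1 alone.

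Ccl20, which attracts Ccr6-bearing lymphocytes and dendritic cells, was read by a pair of probes that differed in part. The brighter probe read -1.23, -1.39 and -1.32 with si-scramble and -1.29, -1.57 and -1.52 with si-uc.323, and the groups overlapped through si-uc.323 replicate 1. The other probe read -1.62, -1.83 and -1.91 with si-scramble and -2.06, -2.05 and -2.01 with si-uc.323, and there the groups did not overlap, with a gap of 0.10. The log2 differences were -0.15 ± 0.12 (SE) for the brighter probe and -0.25 for the other. On slide 1 alone the brighter probe read 0.02.

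Ccl7, the neighbour of Ccl2 on chromosome 10 and a ligand of the same receptor, read -3.09, -2.88 and -3.04 with si-scramble and -3.11, -3.004 and -2.81 with si-uc.323. The groups overlapped, and the log2 difference was 0.03 ± 0.13 (SE). Its direction was not settled: 8 of 17 other settings gave a positive and the rest a negative value. Some settings left the value as it was or repeated another setting, so these are not independent readings.

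Cxcl11, the neighbour of Cxcl10 on chromosome 14, read -4.68, -4.66 and -4.73 with si-scramble and -4.48, -4.80 and -4.01 with si-uc.323. The si-uc.323 arrays spread on both sides of the controls, with standard deviations of 0.40 against 0.035, and replicate 3 was the highest. The log2 difference was 0.26 ± 0.20 (SE), and -0.01 with normexp background correction. Leaving out si-uc.323 replicate 3 gave 0.05, and leaving out replicate 2 gave 0.45.

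Cxcl12, or SDF-1, which retains stem cells and guides vessel growth, was read by probes to 2 transcripts. The probe to NM_022177 read 0.96, 0.67 and 0.82 with si-scramble and 0.79, 0.99 and 0.35 with si-uc.323. The probe to NM_001033883 read 0.38, 0.69 and 0.47 with si-scramble and 0.40, 0.39 and 0.46 with si-uc.323. The groups overlapped at both, and the log2 differences were -0.11 ± 0.18 (SE) and -0.10. The difference of the first changed sign to 0.07 without si-uc.323 replicate 3.

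Members that lie next to each other on a chromosome can be read against each other. A shift in the brightness of a whole array cancels when the probe of a gene is subtracted from that of its neighbour on the same array. The log2 gap of Ccl2 over Ccl7 was 5.29 ± 0.20 with si-scramble and 4.42 ± 0.34 with si-uc.323 (SD, n = 3 each), the gap of Cxcl10 over Cxcl11 was 5.37 ± 0.09 and 4.38 ± 0.65, and that of Cxcl2 over Cxcl1 was -4.71 ± 0.22 and -5.47 ± 0.32. The gap decreased by 0.87 for Ccl2, decreased by 0.99 for Cxcl10 and decreased by 0.76 for Cxcl2. With normexp background correction it decreased by 0.77, decreased by 0.65 and decreased by 0.26. In each pair 1 gene is among the members already described as lower, so these gaps add no separate evidence. The gap itself depends on the probes and is no ratio of transcripts.

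By replicate, 8, 9 and 8 of the 10 members lay below the si-scramble mean on si-uc.323 arrays 1, 2 and 3, with median differences of -0.26, -0.31 and -0.48. The members were chosen on this contrast and the share of all features was not computed, so nothing is read from these counts and medians. On replicate 1, which shares the slide of the controls, the log2 difference from the si-scramble mean was -0.69 for Ccl2, -0.53 for Ccl3, -0.41 for Ccl5, -0.67 for Cxcl10 and -1.11 for Cxcl2. The groups of these 5 did not overlap, so each had to lie below the controls there. The other members read -0.11 for Ccl7, 0.02 for Ccl20 (brighter probe), -0.05 for Cxcl1, 0.21 for Cxcl11 and -0.03 for Cxcl12 (brighter probe). Replicate 3 was the lowest si-uc.323 array for 6 members. Shifting the arrays to a common median in place of the 75th percentile moved the median of all features from 0.04 to -0.06. It moved Ccl2 to -0.95. The 5 members with non-overlapping groups kept their sign in all 17 other settings. Where groups do not overlap, leaving out an array or keeping slide 1 alone cannot change the sign. Other filters on dim probes left these values unchanged. The count of settings is therefore no measure of stability.

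Cell type markers were read on the same arrays. Cardiomyocyte markers passed the filter in 7 of 7 cases with a probe, among them Tnnt2, Myh6 and Actc1. Markers of other cells passed as well: fibroblast in 7 of 8, endothelial in 6 of 6 (Tie1 through the si-uc.323 arrays only), macrophage and leukocyte in 8 of 11, mural in 5 of 5 and epicardial in 3 of 3. The markers Cd3e, S100a8 and S100a9 of T cells and neutrophils did not pass the filter. Summed levels add linear intensities before the log is taken, so the brightest genes of a list weigh most. The summed level of the macrophage and leukocyte list ran from 2.25 to 2.33 with si-scramble and from 2.03 to 2.20 with si-uc.323 (log2), but 5 of its 8 tested genes had a positive difference and the median was 0.10. Cd68 read -0.41 ± 0.11 (adjusted p = 0.0654), Cd14 -0.21 and Cd163 -0.06, and Ptprc read 0.06, Csf1r 0.14, Aif1 0.26, Adgre1 0.42 and Mrc1 0.48. The endothelial sum ran from 3.47 to 3.64 with si-scramble and from 2.48 to 3.11 with si-uc.323. In this list 3 of 6 genes had a positive difference and the median was 0.06. Tie1 is 1 of these 3 but passed the filter only through the si-uc.323 arrays, so nothing is read from this count and median. Kdr read -0.76 (adjusted p = 0.068), Pecam1 -0.30 and Cdh5 -0.10, and Emcn read 0.21, Tek 0.46 and Tie1 0.73. The cardiomyocyte sum ran from 7.96 to 8.03 and from 7.69 to 7.85. Of its 7 genes 4 had a negative difference and 3 a positive difference (Myh6 0.05, Myl2 0.01 and Tnnt2 0.01). Only Actc1 had an adjusted p under 0.05 (-0.63 ± 0.11, adjusted p = 0.0314). The epicardial sum ran from 1.283 to 1.505 and from 0.941 to 1.203. Its genes read -0.48 (Tbx18), -0.37 (Msln) and -0.003 (Wt1), and none had an adjusted p under 0.05. Other probes, which did not stand for the gene, read 0.34 for Tbx18 and 0.105 and 0.126 for Wt1. The fibroblast sums (6.94 to 7.06 and 6.97 to 7.29) and mural sums (5.18 to 5.33 and 5.19 to 5.49) overlapped. Of 7 fibroblast genes 5 had a positive and 2 a negative difference, with a median of 0.08. Only Postn, a matrix protein of activated fibroblasts, had an adjusted p under 0.05 (0.69 ± 0.12, adjusted p = 0.0312). The part of these cell types in the chemokine levels was not tested, and in bulk RNA fewer cells of a type cannot be told apart from less RNA per cell.

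Genes around the members were taken from 8 lists that hold none of the 10: other ligands, receptors, NF-kB, cytokine and sensor inputs, interferon genes, mRNA decay, trimming and matrix binding, and receptor coupling. Of 130 listed genes 114 had a probe and 91 were tested. With p-values from limma, adjusted by Benjamini-Hochberg over all features and held to 0.05, 7 of the 91 were lower, against 2.45% of all features, and 2 were higher, against 3.18%. Their median log2 difference was -0.07, against 0.04 over all features. These calls needed every control: in limma 0 passed without si-scramble replicate 1, 2 or 3 (19, 20 and 17 at an unadjusted p under 0.05), and 0 with the slide as a block (15 unadjusted) or on slide 1 alone (32 unadjusted). Without si-uc.323 replicates 1, 2 and 3, 2, 17 and 2 passed. Of 17 other settings, Cxcl14 and Dpp4 passed in 11, Cx3cr1 and Hnrnpd in 9, Cxcl13 and Il1rn in 8, Ccl12 and Zc3h12a in 7 and Nfkbie in 6. With normexp background correction Ccl12 read -0.47 (adjusted p = 0.0634), Zc3h12a -0.39 (adjusted p = 0.115) and Nfkbie 0.30 (adjusted p = 0.0905). The probes of Ccl12 and Zc3h12a were dim, at mean levels of -5.00 and -5.49 with si-scramble and of -5.71 and -6.12 with si-uc.323.

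Among 18 other chemokine ligands tested, 3 fell, against 2.45% of all features, and none rose, against 3.18%. Of the 18, 13 had a negative value, and the median was -0.18, against 0.04 over all features. The share of all features with a negative value was not computed. The list was chosen with earlier results of these data known, so nothing is read from these counts. Cxcl14, a chemokine of epithelial and stromal cells, read -2.22, -2.42 and -2.27 with si-scramble and -3.26, -3.13 and -3.46 with si-uc.323, so the groups did not overlap. It fell by 0.98 ± 0.13 (SE, adjusted p = 0.0202). Cxcl13, which attracts B cells, fell by 0.76 ± 0.15 (adjusted p = 0.0402) and Ccl12, a monocyte chemokine of the Ccl2 group, fell by 0.71 ± 0.13 (adjusted p = 0.0307). Whether the probes of Ccl2 and Ccl12 also bind each other's transcript was not tested. The remaining 15 ligands did not pass, from Ccl27 at -0.52 to Ccl21 at 0.73.

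**Figure D3:**
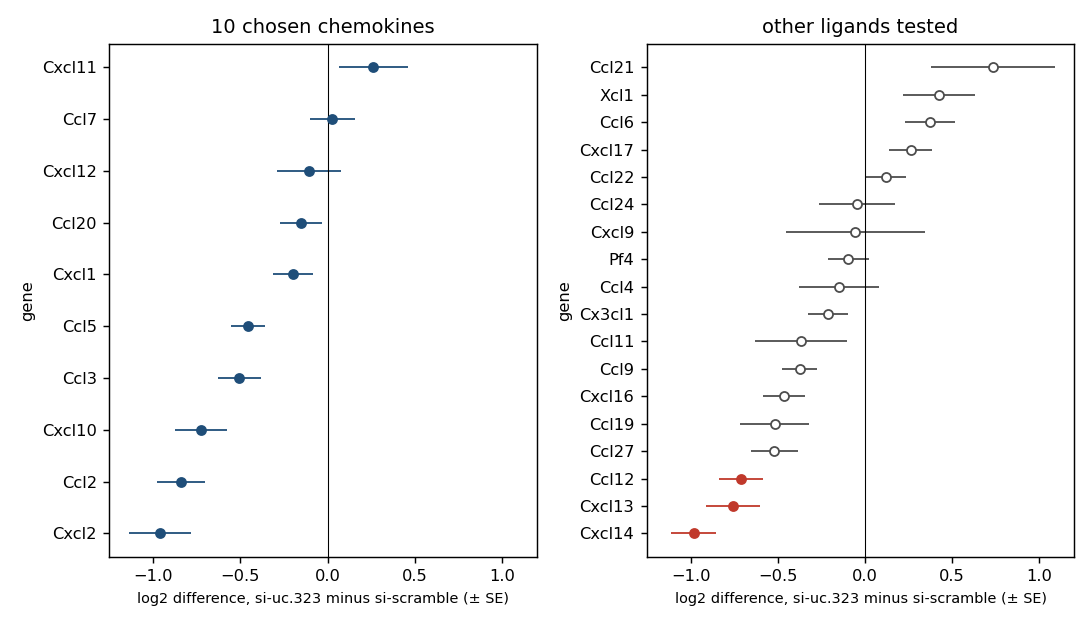
Log2 difference, si-uc.323 minus si-scramble, with its standard error (horizontal axis) for each gene (vertical axis). The 10 chosen chemokines, on the left, are shown without a test and run from -0.96 (Cxcl2) to 0.26 (Cxcl11), and the 18 other ligands tested, on the right, run from -0.98 (Cxcl14) to 0.73 (Ccl21), filled red where the adjusted p was under 0.05 (Cxcl14, Cxcl13 and Ccl12).

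Of 23 listed receptors 20 had a probe and 8 passed the filter. Cx3cr1, the fractalkine receptor of monocytes and macrophages, was the only receptor past the threshold. It read -1.37, 0.00 and -0.84 with si-scramble and -2.65, -1.97 and -2.38 with si-uc.323, without overlap, a difference of -1.60 ± 0.35 (SE, adjusted p = 0.0462). The receptors of the members were looked up by name, outside the rule for named genes. Cxcr2 and Cxcr3 were well above background on 0 of 6 arrays and Ccr2 and Ccr6 on at most 2, so they were not tested. Cxcr4, the signalling receptor of Cxcl12, read 0.50 ± 0.17 (adjusted p = 0.113) and its scavenging receptor Ackr3 -0.27 ± 0.11 (adjusted p = 0.175). Ccr1, a receptor of Ccl3 and Ccl5, read -0.41 ± 0.31 and did not pass either (adjusted p = 0.425).

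In the NF-kB list 1 of 10 tested members rose and none fell. Nfkbie, an inhibitor that holds NF-kB in the cytoplasm, rose by 0.61 ± 0.14 (adjusted p = 0.0495). Nfkbia, the inhibitor that NF-kB itself induces, read -0.17, with an unadjusted 95% interval from -0.47 to 0.13. Of 18 cytokine and sensor genes tested, 1 fell and none rose: Il1rn, the antagonist of the interleukin 1 receptor, fell by 0.72 ± 0.14 (adjusted p = 0.0378). Tnf, Il1b and Il6, named because they are classic inducers or companions of chemokines, read -0.20, 0.01 and 0.22, with unadjusted 95% intervals of -0.52 to 0.11, -0.45 to 0.47 and -0.10 to 0.54.

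Of 14 interferon regulators and targets 0 passed (limma; 3 at an unadjusted p under 0.05). The lowest adjusted p values were those of Irf1, a transcription factor of the interferon response (-0.49 ± 0.16, adjusted p = 0.105, its other probe reading 0.29), and Mx1, an antiviral GTPase (-0.38 ± 0.13, adjusted p = 0.112). Among 6 genes of mRNA decay, Hnrnpd, which binds AU-rich transcripts, rose by 0.89 ± 0.14 (adjusted p = 0.0267), and Zc3h12a, an RNase that degrades cytokine transcripts, fell (-0.63 ± 0.13, adjusted p = 0.0393). Of 12 genes of ligand trimming and matrix binding 1 fell and none rose: Dpp4, a protease that trims Cxcl10, Cxcl11 and Cxcl12, fell by 0.94 ± 0.13 (adjusted p = 0.021). The other probe of Dpp4 read 0.25 but did not pass the filter on dim probes. Among 5 genes of receptor coupling 0 passed (limma; 1 at an unadjusted p under 0.05), with Arrb2 at -0.28 (adjusted p = 0.169) and Gnai2 at 0.18 (adjusted p = 0.325).

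**Figure D4:**
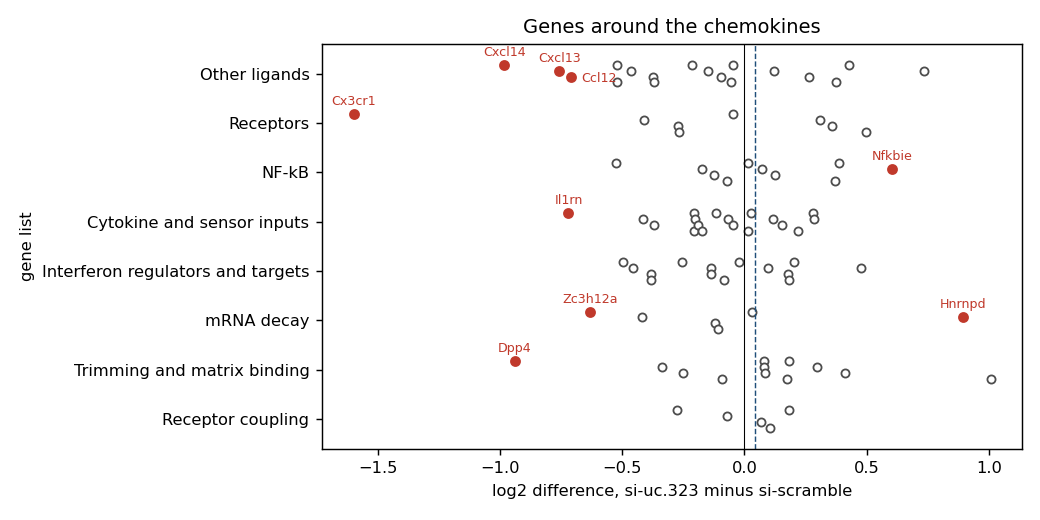
Log2 difference, si-uc.323 minus si-scramble (horizontal axis), of the 91 tested genes in the 8 lists around the chemokines (vertical axis). Red points passed an adjusted p under 0.05, open points did not, and the dashed line is the median of all features, 0.04. The 9 red points are Cxcl14, Cxcl13, Ccl12, Cx3cr1, Il1rn, Zc3h12a and Dpp4 on the left and Nfkbie and Hnrnpd on the right.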

How the data were processed

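The 6 cultures were each read on 1 single-colour Agilent array (design 028282, Cy3). Per the submitters' processing notes the authors used Agilent Feature Extraction 11.0.1.1. Per the file headers, the deposited intensity values are corrected for background. The files also hold flags, such as a spot's being above its background, which the authors deposited as other columns. The log2 values of the series table, deposited by the authors, served as an alternative. Its columns share a median of 6.52 and correlate at 0.995 to 0.999 with the scanner values on the log2 scale, with slopes of 0.918 to 1.03. How the authors normalized them is unknown, but they gave nearly the same differences as quantile normalization of the scanner values. For Ccl2 these were -0.785 and -0.784.

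Control spots and outlier spots (322 to 594 of 42877 per array) were left out, and 0 were saturated. Log2 intensity was shifted by each array's 75th percentile over spots, then averaged per probe. Probes were named by transcript accession through a RefSeq gene table (GRCr8): 18005 of 30367 matched 1 gene and the rest none. A probe was kept if well above background on all arrays of a group, and the brightest kept probe, by its mean over the arrays, stood for a gene. The groups, from the sample titles, were compared with limma 3.58.1 (R 4.3.3) without covariates, and p-values were adjusted over 19920 features, of which 1122 passed 0.05. The script was tested on simulated data. The design text calls the experiments independent; litters are not named, so the spread may be partly technical.

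The members and lists were chosen with earlier results of these data known. The rule named all members, and from each list at most 4 genes past the threshold by lowest adjusted p, or else 2. Markers, receptors of the members, Ccl21, Ccl27, Tnf, Il1b, Il6 and Nfkbia were named after their values were seen. Plots were made with matplotlib 3.10.9. The result of 1 receptor in the lists is not reported here.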

Additional observations from a re-analysis of the deposited data

How the results depend on the processing

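The 12 chemokine probes were recomputed under 17 other settings. Of these 204 values, 188 moved by less than the spread between replicates and 16 by more. The 188 include values that could not move, because other filters and the replicate block leave a probe's difference as it was. The slide block and slide 1 alone gave the same differences, so these were counted under both. Quantile normalization and the series table gave nearly the same differences and were also counted apart. None of the 6 probes with non-overlapping groups changed sign, but leaving out an array or keeping slide 1 alone could not have changed it. Ccl7, the brighter Ccl20 probe, Cxcl11 and the brighter Cxcl12 probe changed sign in at least 1 setting. The counts over all 1122 called features and over the 9 called pathway genes changed more. The counts were 0 and 0 without the background filter (5065 features and 23 pathway genes at an unadjusted p under 0.05 in limma), 660 and 4 with the replicate block, 8 and 0 with the slide block (3135 and 15 unadjusted), and 48 and 0 on slide 1 alone. Leaving out each array gave 0 to 2644 features and 0 to 17 pathway genes. The lowest were 0 and 0 without si-scramble replicate 1 or 3 (3818 and 3393 features unadjusted in limma) and 19 and 0 without si-scramble replicate 2, and the highest were without si-uc.323 replicate 2. Without si-uc.323 replicates 1 and 3 there were 416 and 433 features. The cause of these losses was not tested. The split of the called features was 634 higher and 488 lower, against 500 and 804 with a median shift, 492 and 630 with normexp and 557 and 623 with the percentile taken over probes, an alternative chosen after seeing the data. Same-numbered cultures deviated together at correlations of 0.20, 0.39 and -0.12, so the numbers were not taken as pairs. Dim probes such as Cxcl2, Cxcl11, Ccl12 and Zc3h12a are limited by their signal over background.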
